A study of Mus musculus with 20 samples.

Results

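Hepatocytes make most of the proteins of blood plasma, and the 10 genes described here are, but for Cyp2e1, genes of such proteins. They are Alb (albumin), Ahsg (fetuin-A), Hpx (hemopexin), Fga, Fgb and Fgg (the Aα, Bβ and γ chains of fibrinogen), Apoa1 and Apoh (apolipoproteins), Ttr (transthyretin) and Cyp2e1 (a cytochrome P450 enzyme of hepatocytes). They were taken by symbol, 10 of the 30142 genes that the array annotation named by 1 symbol, and each had 1 row in the table. The list was chosen by the levels on the metastasis arrays, read against those on the bladders, so the metastasis values are given as a description, with no test.

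The study profiled bladders and metastases of a mouse model of metastatic bladder cancer on 20 Affymetrix whole-transcript arrays. All mice were CKO mice of the FVB/N strain, which carry floxed alleles, among them floxed Rb (Rbf/f), and lack p107 (p107-/-), and this genotype is shared by the normal bladders. There was 1 palbo metastasis, for which the treatment is named in the title alone, and 4 metastases (1 to 4). The labels do not give the site of any metastasis. The treated bladders (3 arrays) had received an adenovirus coding for Cre, which deletes the floxed alleles in the cells it enters, followed by palbociclib, an inhibitor of Cdk4 and Cdk6, at 150 mg/kg daily into the peritoneum for 28 days and by CDDP (cisplatin) at 6 mg/kg once a week. The tumour bladders (7 arrays) had received the Cre adenovirus alone. The normal bladders (5 arrays, numbered 1, 2, 4, 5 and 6) are CKO bladders for which no virus is named. The labels do not say whether each array came from a separate animal, so errors and p-values measure the spread between these arrays, which may be technical.

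Albumin carries fatty acids, hormones and metals and sets the osmotic pressure of plasma, hemopexin binds free heme, fetuin-A keeps calcium phosphate from precipitating, and transthyretin carries thyroxine and retinol-binding protein. Fibrinogen is assembled from its Aα, Bβ and γ chains and is cut by thrombin into the fibrin of a clot. Apolipoprotein A-I is the main protein of high-density lipoprotein, apolipoprotein H binds phospholipids, and Cyp2e1 oxidises ethanol and other small molecules in the endoplasmic reticulum. In the liver these genes are switched on together by hepatic transcription factors, among them HNF1, HNF4 and C/EBP factors, and the fibrinogen and hemopexin genes are driven further in the acute phase of inflammation.

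The 6 genes with the largest differences on metastasis 2 (below) are shown with the 200 bases before their transcription start, since they were high together on that array. RefSeq promoter windows (GRCm38.p6) were used for 9 of the 10 genes. Ttr was left out by the chromosome it lies on, so the motif counts below say nothing of it. The Ahsg window lies at chr16:22891815-22892014 on the plus strand, Alb at chr5:90460670-90460869 on the plus strand, and Hpx at chr7:105600117-105600316 on the minus strand. Fgg lies at chr3:83007524-83007723 and Fga at chr3:83025953-83026152, both on the plus strand, and Fgb at chr3:83049864-83050063 on the minus strand. Capitals mark matches on either strand to 3 motifs, GTTAAT (an HNF1 half-site), CAAAGTC (HNF4) and TTGCNNAA (C/EBP), and no matches overlapped in these windows.
Ahsg: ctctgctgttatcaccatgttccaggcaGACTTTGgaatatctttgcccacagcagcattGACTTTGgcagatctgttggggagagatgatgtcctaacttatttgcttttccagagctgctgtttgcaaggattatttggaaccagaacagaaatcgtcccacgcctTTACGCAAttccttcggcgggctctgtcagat
Alb: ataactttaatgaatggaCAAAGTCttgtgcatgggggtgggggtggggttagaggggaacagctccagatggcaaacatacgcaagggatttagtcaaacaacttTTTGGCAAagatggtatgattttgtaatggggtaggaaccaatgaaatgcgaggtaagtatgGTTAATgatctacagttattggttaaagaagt
Hpx: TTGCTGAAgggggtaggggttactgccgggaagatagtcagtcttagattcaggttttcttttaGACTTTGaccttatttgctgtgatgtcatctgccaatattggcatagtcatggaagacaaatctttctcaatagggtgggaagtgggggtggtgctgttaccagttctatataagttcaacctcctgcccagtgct
Fga: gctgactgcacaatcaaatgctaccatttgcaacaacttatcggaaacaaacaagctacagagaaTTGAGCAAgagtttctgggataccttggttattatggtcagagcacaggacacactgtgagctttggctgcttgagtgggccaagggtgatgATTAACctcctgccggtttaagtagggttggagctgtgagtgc
Fgb: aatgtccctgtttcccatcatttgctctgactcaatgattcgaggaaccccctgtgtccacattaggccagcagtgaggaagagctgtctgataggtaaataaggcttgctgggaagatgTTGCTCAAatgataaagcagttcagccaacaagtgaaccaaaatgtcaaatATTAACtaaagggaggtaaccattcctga
Fgg: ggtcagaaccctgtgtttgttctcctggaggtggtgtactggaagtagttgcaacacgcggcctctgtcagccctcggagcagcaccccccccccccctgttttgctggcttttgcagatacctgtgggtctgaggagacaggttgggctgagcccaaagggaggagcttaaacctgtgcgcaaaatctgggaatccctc

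The HNF1 half-site was found in 3 of the 9 windows, against 5.06% of 32851 RefSeq promoter windows of the same length. It ended 27 bases before the start in Alb, 38 in Fga and 24 in Fgb. The HNF4 motif was found in 3 of the 9, against 3.03% of all promoters, in Alb, in Hpx and at 2 places in Ahsg. The C/EBP motif was found in 5 of the 9, against 7.47% of all promoters, in Alb, Fga, Fgb, Hpx and Ahsg. No match to these letters was present in the windows of Fgg, Apoa1, Apoh and Cyp2e1. These matches describe letters in a window and show no binding.

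Values are deposited RMA log2 levels, on which a difference of 1 is a 2-fold difference, and levels are compared between arrays and not between genes. Array medians ran from 5.11 to 5.48. A group of 8 arrays (metastases 3 and 4, tumour bladders 3, 4 and 5, and normal bladders 4, 5 and 6) stood apart, with an SD of 0.336 to 0.367 over dim rows (mean level 4.5 to 5) and a correlation of at most 0.21 with any other array over the brighter rows. On the other 12 arrays that correlation was at least 0.26. The 8 were set by cutoffs, an SD above 0.3 and a correlation under 0.25, so these differences follow from the rule. Tumour bladder 1 passed the first (SD 0.329) but not the second (correlation 0.65). Treated bladder 1, with a correlation of 0.26, had an SD of 0.228. Metastases 1 and 2 were not among the 8. In pieces of tissue, fewer cells of a type and less RNA per cell cannot be told apart.

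The liver genes were high on single metastases and not on the metastases as a group. On metastasis 2, 6 of the 10 genes lay at least 1 above the mean of the 7 tumour bladders, where 1.41% of all 30142 genes did. These were Fgg, Fgb, Ahsg, Alb, Hpx and Fga. On metastasis 1 it was 2 of the 10, Ahsg and Cyp2e1, where 3.27% of all genes did. On metastasis 3 none of the 10 did (0.607% of all genes), on metastasis 4 none (0.677%), and on the palbo metastasis none (1.25%). Metastases 3 and 4 are among the 8 arrays that stood apart, and the bearing of this on their counts was not tested. Over those 8 arrays the SD was 0.18 for Ahsg and 0.21 for Fgg. Over the other 12, which include metastases 1 and 2, it was 1.80 and 1.61. With the tumour mean taken without the 3 tumour bladders that stood apart, the counts were 7 on metastasis 2 (with Cyp2e1 added), 2 on metastasis 1 and 1 on the palbo metastasis (Ahsg). The share of all genes past that difference under this mean is not given here, so these counts have no background. Since the genes were chosen with these arrays in view, nothing is read from the counts or shares.

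**Figure D1:**
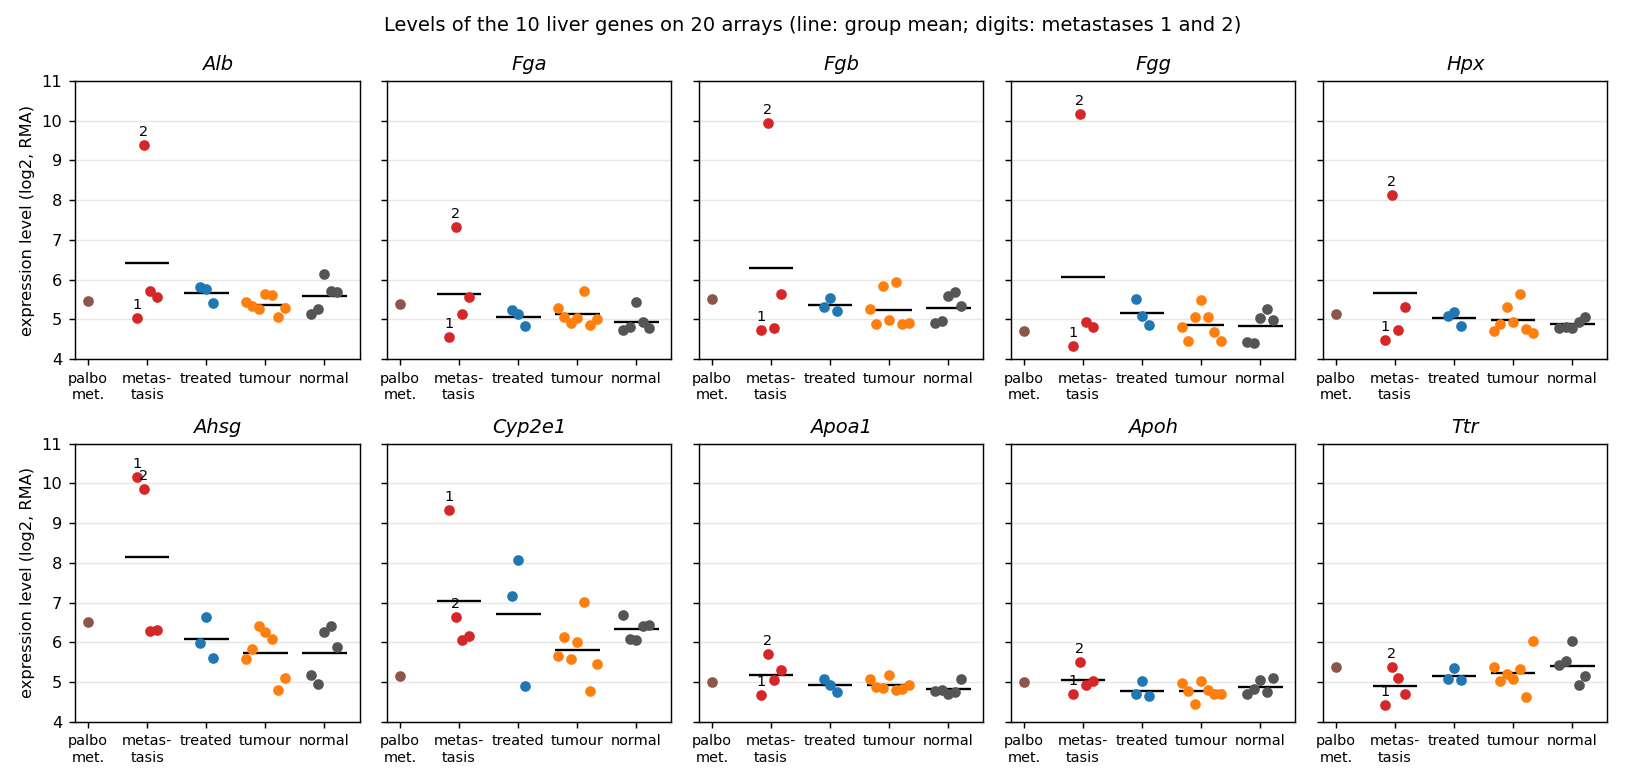
Each panel plots the log2 level (y axis) of a gene on every array, in the order palbo metastasis, metastases, treated, tumour and normal bladders; points are arrays, black lines are group means, and the digits 1 and 2 mark metastases 1 and 2. Metastasis 2 stood at 9.40 for Alb, 9.95 for Fgb and 10.16 for Fgg, while metastasis 1 stood high for Ahsg (10.16) and Cyp2e1 (9.33).

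Of the 10 genes, Fgg and Fgb had the largest differences on metastasis 2, and Fga the smallest of the 6 genes that were high there. Fgg, the γ chain, was at 4.70 on the palbo metastasis and at 4.33, 10.16, 4.94 and 4.81 on metastases 1 to 4. It was at 5.52, 5.09 and 4.86 on the treated bladders, between 4.45 and 5.49 (median 4.82) on the tumour bladders, and at 4.44, 4.41, 5.02, 5.25 and 4.98 on the normal bladders. Metastasis 2 therefore stood 4.65 above the next highest of all arrays, and metastasis 1 was the lowest of all, just under normal bladder 2 (4.41). Fgg was among the dim genes on metastasis 1 (percentile 6.7 of the array's genes), as on tumour bladder 2 (percentile 4.9). The Fgg level on metastasis 2 was 5.31 above the tumour mean.

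Fgb, the Bβ chain, was at 5.52 on the palbo metastasis and at 4.74, 9.95, 4.79 and 5.65 on metastases 1 to 4. On bladders it was at 5.31, 5.55 and 5.22 (treated), between 4.89 and 5.93 with a median of 4.99 (tumour), and at 4.91, 4.95, 5.58, 5.69 and 5.34 (normal). Metastasis 2 was 4.70 above the tumour mean and 4.02 above the next highest array, and the other metastases overlapped the bladders or lay below them.

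Fga, the Aα chain, was at 5.38 on the palbo metastasis and at 4.55, 7.33, 5.14 and 5.57 on metastases 1 to 4. The treated bladders were at 5.23, 5.13 and 4.83, the tumour bladders between 4.86 and 5.72 (median 5.04), and the normal bladders at 4.73, 4.81, 5.43, 4.94 and 4.79. Metastasis 2 was again the highest array, 2.21 above the tumour mean and 1.61 above the next. The chains of this single protein thus differed from the tumour mean by unequal amounts on the same array, with Fga the least.

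Among the carrier proteins, Alb was at 5.46 on the palbo metastasis and at 5.03, 9.40, 5.71 and 5.55 on metastases 1 to 4. The treated bladders were at 5.81, 5.77 and 5.41, the tumour bladders between 5.05 and 5.65 (median 5.33), and the normal bladders at 5.13, 5.26, 6.13, 5.70 and 5.70. Albumin was high on metastasis 2, by 4.03 over the tumour mean and 3.26 over the next array, normal bladder 4. On metastasis 1 it lay below every bladder.

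Hpx, which binds heme, was at 5.13 on the palbo metastasis and at 4.49, 8.14, 4.72 and 5.30 on metastases 1 to 4. The treated bladders were at 5.09, 5.18 and 4.82, the tumour bladders between 4.65 and 5.64 (median 4.88), and the normal bladders at 4.79, 4.80, 4.79, 4.92 and 5.06. Metastasis 2 stood alone here too, 3.16 above the tumour mean and 2.50 above tumour bladder 5.

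Ahsg, the fetuin-A gene, was high on metastasis 1 as well as on metastasis 2. It was at 6.50 on the palbo metastasis and at 10.16, 9.86, 6.27 and 6.32 on metastases 1 to 4. The treated bladders were at 5.99, 6.63 and 5.60, the tumour bladders between 4.80 and 6.42 (median 5.83), and the normal bladders at 5.18, 4.96, 6.26, 6.40 and 5.88. Metastasis 1 lay 3.53 above the highest bladder (treated bladder 2) and metastasis 2 lay 3.23 above it, and the palbo metastasis and metastases 3 and 4 lay within the bladder range. The difference between metastases 2 and 1 was -0.30 for Ahsg, against 5.84 for Fgg, 5.20 for Fgb, 4.37 for Alb, 3.65 for Hpx and 2.78 for Fga.

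Cyp2e1, the hepatocyte enzyme, was high on metastasis 1 and not on metastasis 2. It was at 5.15 on the palbo metastasis and at 9.33, 6.64, 6.05 and 6.15 on metastases 1 to 4. The treated bladders were at 7.18, 8.06 and 4.90, the tumour bladders between 4.79 and 7.01 (median 5.65), and the normal bladders at 6.70, 6.08, 6.06, 6.40 and 6.44. Metastasis 1 was 3.52 above the tumour mean and 1.26 above treated bladder 2, whereas metastasis 2 lay inside the bladder range. Adipocytes are also known to express Cyp2e1. The other adipocyte genes on these arrays are given with the cell type lists.

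Apoa1 and Apoh were highest on metastasis 2 by a small margin. Apoa1 was at 4.9956 on the palbo metastasis, at 4.67, 5.70, 5.05 and 5.30 on metastases 1 to 4, and between 4.70 and 5.18 on the 15 bladders (median 4.84). Apoh was at 5.0003 on the palbo metastasis, at 4.69, 5.50, 4.94 and 5.04 on metastases 1 to 4, and between 4.45 and 5.10 on the bladders (median 4.78). The margin of metastasis 2 over the next array was 0.41 for Apoa1 and 0.39 for Apoh.

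Ttr, the thyroxine carrier, was at 5.37 on the palbo metastasis and at 4.43, 5.37, 5.10 and 4.69 on metastases 1 to 4, and the bladders ran from 4.63 to 6.04 (median 5.20). No metastasis was above the bladder range, and metastasis 1 lay below it, at a dim level (percentile 9.99 of the array's genes). Across the 10 genes, 8 were above all 15 bladders on metastasis 2 (5.58% of all genes were), all but Ttr and Cyp2e1. Metastasis 1 had 2 (9.19% of all genes), metastasis 4 had Apoa1 alone (5.11%), and metastasis 3 (5.78%) and the palbo metastasis (5.6%) had none.

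**Figure D2:**
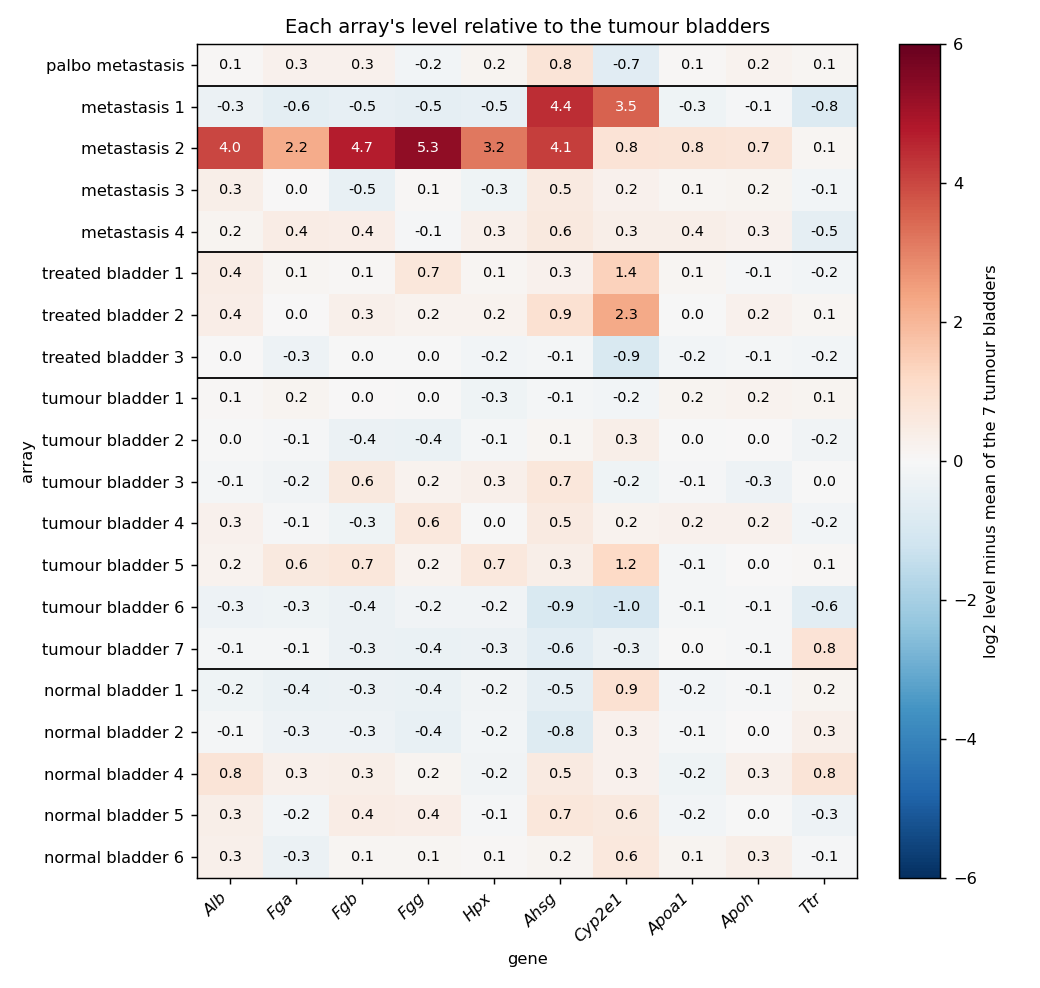
Rows are the 20 arrays and columns the 10 genes; colour and printed number give the log2 level minus the mean of the 7 tumour bladders, red for higher and blue for lower. Metastasis 2 carries the differences of 2.21 to 5.31 for Fga, Hpx, Alb, Ahsg, Fgb and Fgg, metastasis 1 carries those of Ahsg (4.44) and Cyp2e1 (3.52), and the remaining metastases show none of at least 1.

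Group means carry this spread. Ahsg averaged 8.15 ± 2.15 on the 4 metastases, 5.72 ± 0.60 on the 7 tumour bladders and 5.73 ± 0.64 on the 5 normal bladders (SD), a difference of 2.43 from tumour and 2.42 from normal. Without metastasis 2 the differences were 1.86 and 1.85, and without metastasis 1 they were 1.76 and 1.75. Fgg averaged 6.06 ± 2.75 on the metastases, 4.86 ± 0.37 on tumour bladders and 4.82 ± 0.38 on normal bladders, and the difference of 1.20 from tumour became -0.17 without metastasis 2. In the same way the metastasis minus tumour difference became 0.06 in place of 1.05 for Alb, -0.19 in place of 1.04 for Fgb, -0.15 in place of 0.68 for Hpx and -0.04 in place of 0.52 for Fga. Cyp2e1 averaged 7.04 ± 1.54 on the metastases, 5.80 ± 0.69 on tumour bladders and 6.34 ± 0.27 on normal bladders, and its difference from tumour was 1.24, or 0.48 without metastasis 1. Its difference from normal was 0.71, or -0.05 without metastasis 1. Ttr was lower on the metastases, 4.895 ± 0.42 against 5.24 ± 0.43 on tumour bladders and 5.41 ± 0.42 on normal bladders, within the spread of these groups. The median over the 10 genes of the metastasis minus tumour difference was 0.86, but 0.01 without metastasis 2 and 1.75 without the 8 arrays that stood apart. For metastasis minus normal it was 0.75, but -0.02 without metastasis 2 and 1.56 without the 8 arrays.

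In the order of its group levels, Ahsg ran from the metastases through the palbo metastasis (6.50) and the treated bladders (6.08 ± 0.52, SD, n = 3) to the normal and tumour bladders. Neighbours in this order differed by less than the SD within the metastases or the treated bladders. For the other 9 genes the treated, tumour and normal means differed by at most 0.33, but for Cyp2e1, whose treated mean was 6.71 ± 1.63 because treated bladder 3 (4.90) lay far below treated bladders 1 and 2.

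The other liver genes did not all follow. Of 25 other measured plasma protein genes, 9 were at least 1 above the tumour mean on metastasis 2, with a median difference of 0.56, against -0.03 over all genes. The largest were Orm1 (an acid glycoprotein of the acute phase) at 9.68 against 5.43 to 7.22 on the bladders, its near-identical copy Orm2 at 8.80 against 5.72 to 6.94, Pzp (a broad protease inhibitor) at 7.28 against 4.69 to 5.33, and Hp (haptoglobin, which binds hemoglobin) at 10.11 against 6.96 to 8.79. Rbp4, the retinol carrier that travels with transthyretin, was at 5.68, inside its bladder range of 5.27 to 7.17. Of 12 lipoprotein genes 1 did, Apoe, found in macrophages as well as in hepatocytes, at 9.07 against 6.82 to 7.86 on the bladders. Apob, the protein of low-density lipoprotein, differed by 0.69. Of 24 coagulation and complement genes 1 did, Plg (plasminogen), by 1.04, and F2 (prothrombin) differed by 0.63.

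Genes of acute-phase proteins were high on metastasis 2 as well. Of 17 measured, 9 were at least 1 above the tumour mean, with a median of 1.04, among them Orm1, Orm2, Hp and Itih4, which was at 6.75 against 4.38 to 5.57 on the bladders. Crp (5.21) and Saa4 (4.23) lay within their bladder ranges. The summed list, taken as the mean level over its genes, was 6.95 on metastasis 2, 5.99 on metastasis 1 and 5.40 to 6.08 on the 15 bladders. The 9 acute-phase genes share 6 with the 9 plasma protein genes above, 66.7% of either set. On metastasis 1, 4 of the 17 were at least 1 above the tumour mean (Hp and, named after their values were seen, Saa3, Il1rn and Lcn2).

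Most genes of hepatocyte enzymes, transporters and transcription factors differed from the tumour mean by less than 1 on metastasis 2. Of 34 enzyme genes, 2 were at least 1 above the tumour mean and 1 at least 1 below it, with a median of 0.14. Tat (tyrosine breakdown) was at 5.86 against 4.09 to 4.83 on the bladders, and Cps1, the entry enzyme of the urea cycle, at 5.97 against 4.81 to 5.39. Otc, the next enzyme of that cycle, was at 4.23, and Adh1 (alcohol dehydrogenase) was 1.33 below the tumour mean. Arg1, which splits arginine and is also made by macrophages, was at 6.96 on metastasis 2 and at 8.54 on metastasis 1, against 5.01 to 6.04 on the bladders. Besides Tat, Cps1 and Arg1, the enzyme-list genes Mat1a, Asl, G6pc, Cyp3a25 and Slc27a5 lay above all bladders on metastasis 2. Their differences from the tumour mean were 0.83, 0.41, 0.40, 0.29 and 0.29. Of all genes, 5.58% lay above all bladders on that array. None of 9 transporter genes differed by 1 (median 0.04), and Slc10a1, the bile salt importer, was at 4.85 against 4.40 to 5.34. Of 19 hepatic transcription factor genes, Gata6 alone did, at 8.90 against 5.41 to 7.53. Cebpa, which binds C/EBP motifs, was at 8.52 on metastasis 2 and 8.90 on metastasis 1, against 6.92 to 8.41. Of 6 genes of fetal liver or hepatic tumours none did (median -0.13), and Afp (α-fetoprotein) was at 4.99 against 4.81 to 5.58. The medians of these liver lists on metastasis 2, but for plasma proteins and the acute phase, lay between -0.13 and 0.22.

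**Figure D3:**
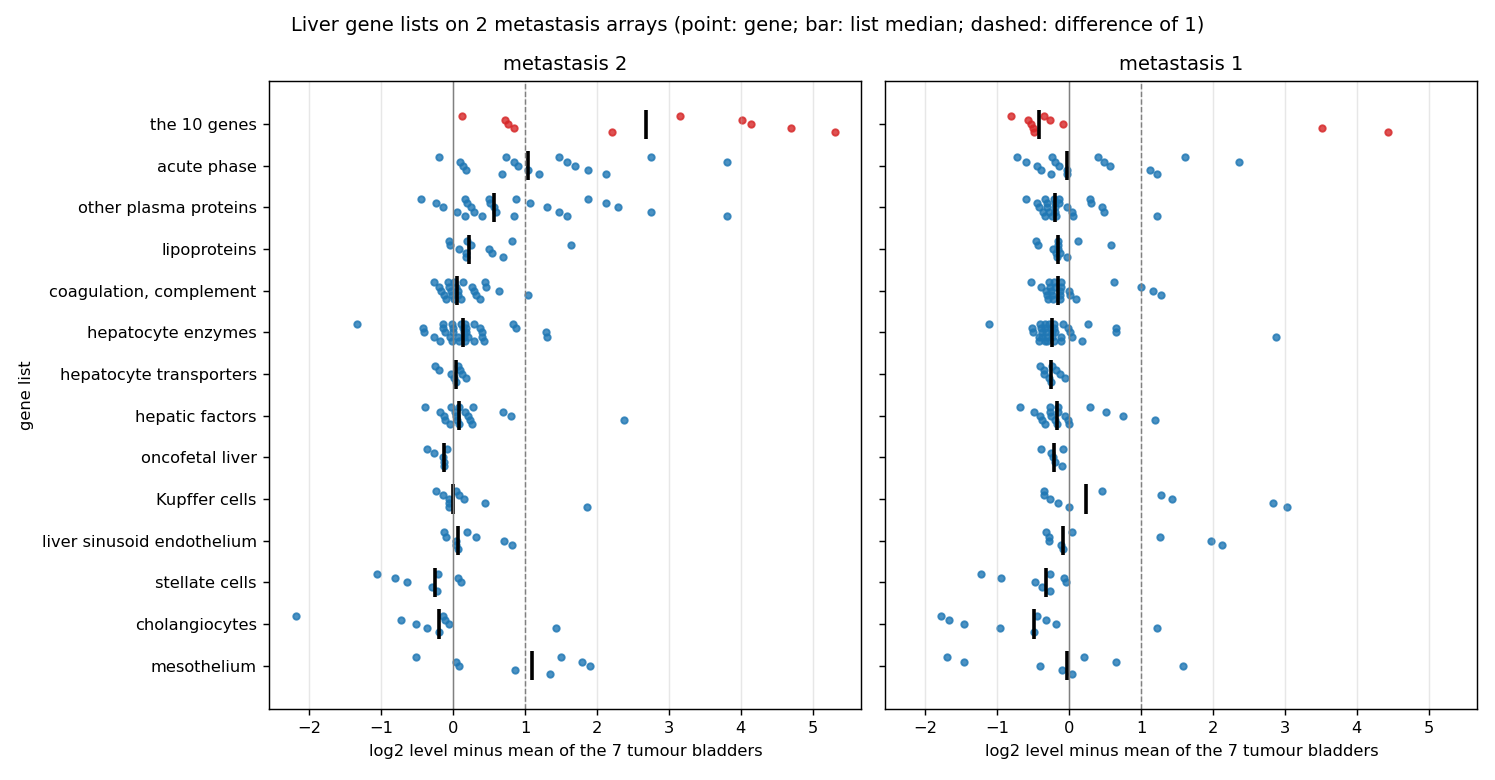
Points are genes, placed by their log2 level on metastasis 2 (left) or metastasis 1 (right) minus the mean of the 7 tumour bladders; black bars are list medians and the dashed line marks a difference of 1. On metastasis 2 the medians were 1.04 for acute-phase genes, 0.56 for other plasma proteins and 1.10 for mesothelium, and 0.14 for hepatocyte enzymes.

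Markers of other cells moved on the same arrays, and their part in the liver gene levels was not tested. On metastasis 2, 4 of 8 mesothelial genes (cells lining the body cavities) were at least 1 above the tumour mean, with a list level of 6.64 against 5.25 to 6.30 on the bladders. These were Lrrn4 (7.54, bladders 4.81 to 6.83), Wt1 (6.86, bladders 4.37 to 6.12), Upk3b (7.76, bladders 4.83 to 7.53) and Gpm6a (7.28, bladders 5.46 to 6.58). The rest of that list did not reach 1. Msln differed by 0.85, while Krt8 (0.08), Calb2 (0.04) and Krt19 (-0.52) lay inside their bladder ranges. On metastasis 1 only Wt1 of that list reached 1 (at 6.65), Krt8 and Krt19 were at least 1 below the tumour mean, and the median was -0.03. Of the genes of liver macrophages (Kupffer cells), 1 of 10 reached 1 on metastasis 2, Vsig4 (7.50, bladders 4.51 to 6.77). None of 9 genes of liver sinusoid endothelium, 8 of stellate cells, 12 of lung, 11 of kidney, 12 of intestine and pancreas, 10 of lymphocytes or 12 of skeletal muscle did, and 1 of 9 of bile ducts did (Tspan8, by 1.44). Of the genes of red blood cells, 3 were measured, and none differed by 1 on metastases 1 or 2.

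On metastasis 1, where Ahsg and Cyp2e1 were high, 4 of 10 Kupffer cell genes were at least 1 above the tumour mean, with a list level of 6.49 against 5.33 to 5.91 on the bladders. Folr2 was at 9.77, Vsig4 at 8.47 and Timd4 at 6.26, and the fourth, named after its values were seen, was Marco at 7.68. The list median was 0.23. Clec4f, the defining marker of mouse Kupffer cells, was at 5.02, inside its bladder range of 4.99 to 5.68, and was taken up after its values were seen. Of 9 genes of sinusoid endothelium 3 did, Mrc1 (9.39), Lyve1 (8.48) and Fcgr2b (7.50), of which Mrc1 and Fcgr2b are also made by macrophages. The list median was -0.08, and Stab2 and Clec4g, receptors of that endothelium, differed by -0.27 and -0.32. Of 9 adipocyte genes 4 did, with a median of 0.94 and a list level of 6.73 against 5.43 to 6.69 on the bladders. Fabp4 was at 10.43 and Car3 at 7.85, both inside their bladder ranges (7.86 to 10.56 and 5.05 to 9.21), and Lpl was at 7.11, above its bladder range of 4.94 to 6.53. Retn, named after its values were seen, was at 7.0205, inside its bladder range of 5.24 to 7.0235. Of 6 platelet genes 1 did, Pf4, at 9.14 against 5.69 to 6.82 on the bladders. Among the other liver lists it was 1 of 25 plasma protein genes, 1 of 34 enzyme genes and 1 of 19 factor genes. It was also 2 of 24 coagulation and complement genes, and none of 12 lipoprotein or 9 transporter genes. Of all genes, 3.27% did. The medians of these liver lists lay between -0.25 and -0.16, that of the 10 genes was -0.42 and that of all genes -0.10. On the palbo metastasis, where none of the 10 liver genes reached that difference, 2 of the 10 Kupffer cell genes did, Folr2 (1.49) and Vsig4 (1.33). The Kupffer list level there was 6.28 and its median 0.45. Mrc1 (1.57) and Pf4 (1.59) were also high on that array, and the adipocyte list had a median of -0.33. Pf4 differed by 1.15 on metastasis 3. The part of these cells in the levels of Ahsg and Cyp2e1 was not tested.

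The urothelial list (15 genes) had median differences of -1.75 on the palbo metastasis, -1.35 on metastasis 1 and -0.60 on metastasis 2. On metastases 3 and 4 its medians were -0.06 and -0.23. Upk1a, a uroplakin, was at 5.99 on metastasis 2. On metastasis 2, 5 of the 15 were at least 1 below the tumour mean and 2 at least 1 above it. The 2 above it were Upk1b, another uroplakin, at 12.14, which was 1.87 above the tumour mean and between its bladder extremes of 6.49 and 14.41, and Upk3b, also on the mesothelial list, which was 1.497 above the tumour mean and above all bladders. The smooth muscle list (10 genes) had median differences of -1.66 on the palbo metastasis, -1.17 on metastasis 1 and -1.04 on metastasis 2. On metastases 3 and 4 the smooth muscle medians were -0.03 and 0.07. The part of urothelial and smooth muscle cells in the liver gene levels was not tested.

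The genes beside the fibrinogen genes and Alb on the chromosomes lay inside their bladder ranges on metastasis 2, and in the region of Ahsg Hrg, Kng1 and Kng2 lay above theirs. Fgg, Fga and Fgb lie side by side in the RefSeq annotation, and the genes that flank them, Lrat (4.69, bladders 4.09 to 5.07) and Plrg1 (6.57, bladders 5.69 to 7.33), lay inside their bladder ranges. Alb is followed by its relatives Afp and Afm, and both lay inside theirs (4.99 and 4.82). Ahsg is followed by Fetub, the related fetuin-B gene, at 4.96 on metastasis 2 and 5.26 on metastasis 1 against 4.43 to 5.07 on the bladders. The next gene, Hrg (histidine-rich glycoprotein), was at 5.57 on metastasis 2 and 4.17 on metastasis 1, against 4.09 to 4.96. The kininogen genes Kng1 and Kng2, on the list of genomic neighbours, were at 5.92 (bladders 4.41 to 5.02) and 5.84 (bladders 4.91 to 5.56) on metastasis 2, and at 4.47 and 4.87 on metastasis 1. Dnajb11, on the other side of Ahsg, was at 6.70 on metastasis 2 and 7.03 on metastasis 1, against 5.95 to 6.74. Apoc3, next to Apoa1, was at 5.40, at the top of its bladder range of 4.64 to 5.40.

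**Figure D4:**
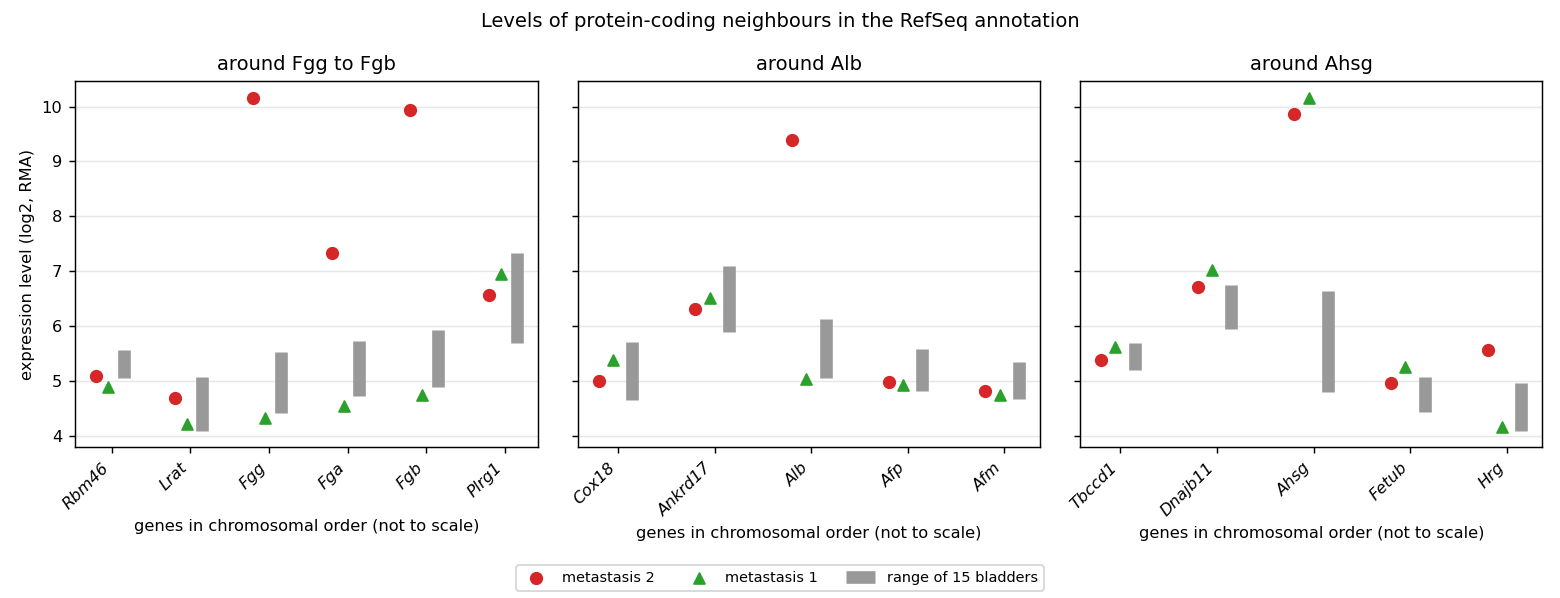
Log2 levels of protein-coding genes in chromosomal order around the fibrinogen cluster, Alb and Ahsg; circles are metastasis 2, triangles metastasis 1 and grey bars the range of the 15 bladders. On metastasis 2, Fgg (10.16), Fga (7.33), Fgb (9.95), Alb (9.40), Ahsg (9.86) and Hrg (5.57) lie above their grey bars and the other genes inside theirs.

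Over the 20 arrays the mean of the 10 genes was most alike in pattern to Pzp (Pearson r 0.93), Orm2 (0.92), Prune2 (0.90), Aldh1a1 (0.90), Orm1 (0.90), Hmcn1 (0.89), Kng1 (0.89), Hoxa2 (0.87), Sez6l (0.86) and Itih4 (0.86). Without metastasis 2 the same r lay between 0.33 (Hmcn1) and 0.68 (Aldh1a1), and without metastases 1 and 2 it lay between 0.28 (Hmcn1) and 0.82 (Pzp), with 0.72 for Orm2 and 0.67 for Kng1. Aldh1a1, an enzyme of retinoic acid synthesis, was at 9.05 on metastasis 2 and 7.28 on metastasis 1, against 4.83 to 6.64 on the bladders. Hoxa2, a homeobox factor, was at 6.72 and 5.58 on metastases 2 and 1, against 4.51 to 5.57.

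Ahsg on its own was most alike to Arg1 (r 0.92), Wt1 (0.90), Ctsk (0.90), Ildr2 (0.88) and Cdh2 (0.88). Ctsk (cathepsin K, a collagen protease) was at 7.93 on metastasis 2 and 7.61 on metastasis 1 against 5.36 to 6.12 on the bladders, and Cdh2 (N-cadherin) was at 6.91 and 7.09 against 5.36 to 6.19. Without metastases 1 and 2, over 18 arrays, r was 0.82 for Arg1, 0.71 for Wt1, 0.56 for Ildr2, 0.46 for Ctsk and 0.46 for Cdh2. Among the 45 pairs of the 10 genes, r ran from -0.30 to 0.98 with a median of 0.58, and from -0.34 to 0.78 with a median of 0.28 without metastases 1 and 2. The arrays share their normalisation, and 8 of them stood apart as described, so these values describe the arrays and carry no p.

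Within the bladders, no difference of the 10 genes passed the test. In limma fits over all 5 groups, 0% of the 30142 genes passed an adjusted p of 0.05 for treated against tumour, treated against normal or tumour against normal, and 103, 108 and 1281 genes had an unadjusted p under 0.05. The 10 genes had a median difference of 0.08 (treated minus tumour), 0.11 (treated minus normal) and -0.03 (tumour minus normal), against -0.02, -0.01 and 0.01 over all genes. No gene of the other liver lists or of the cell type lists passed either.

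The largest of these differences was that of Cyp2e1, 0.91 ± 0.65 (SE, limma) for treated minus tumour, which rests on treated bladders 1 and 2, while treated bladder 3 lay below the tumour median. It was 0.38 ± 0.69 for treated minus normal and -0.53 ± 0.55 for tumour minus normal. Ahsg differed by 0.35 ± 0.70 (treated minus tumour), 0.34 ± 0.74 (treated minus normal) and -0.01 ± 0.59 (tumour minus normal). Alb differed by 0.29 ± 0.59, 0.08 ± 0.63 and -0.21 ± 0.50 in the same order. The differences of the fibrinogen genes lay between -0.06 (Fga) and 0.30 (Fgg) for treated minus tumour, and those of Hpx, Apoa1, Apoh and Ttr lay between -0.08 and 0.05.

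These errors include the spread among the metastases, since 1 variance was estimated for all groups. In fits on the groups compared alone, the error of Ahsg for treated minus tumour was 0.36 and that of Alb 0.15, and limma's adjusted p was at least 0.998 for the 10 genes in each comparison. Without the 8 arrays that stood apart, Ahsg differed by 0.75 ± 0.29 for treated minus tumour and by 1.01 ± 0.35 for treated minus normal, with unadjusted limma p of 0.028 and 0.016, and limma's adjusted p was at least 0.9999 for both. The groups then held 3 treated, 4 tumour and 2 normal bladders.

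**Figure D5:**
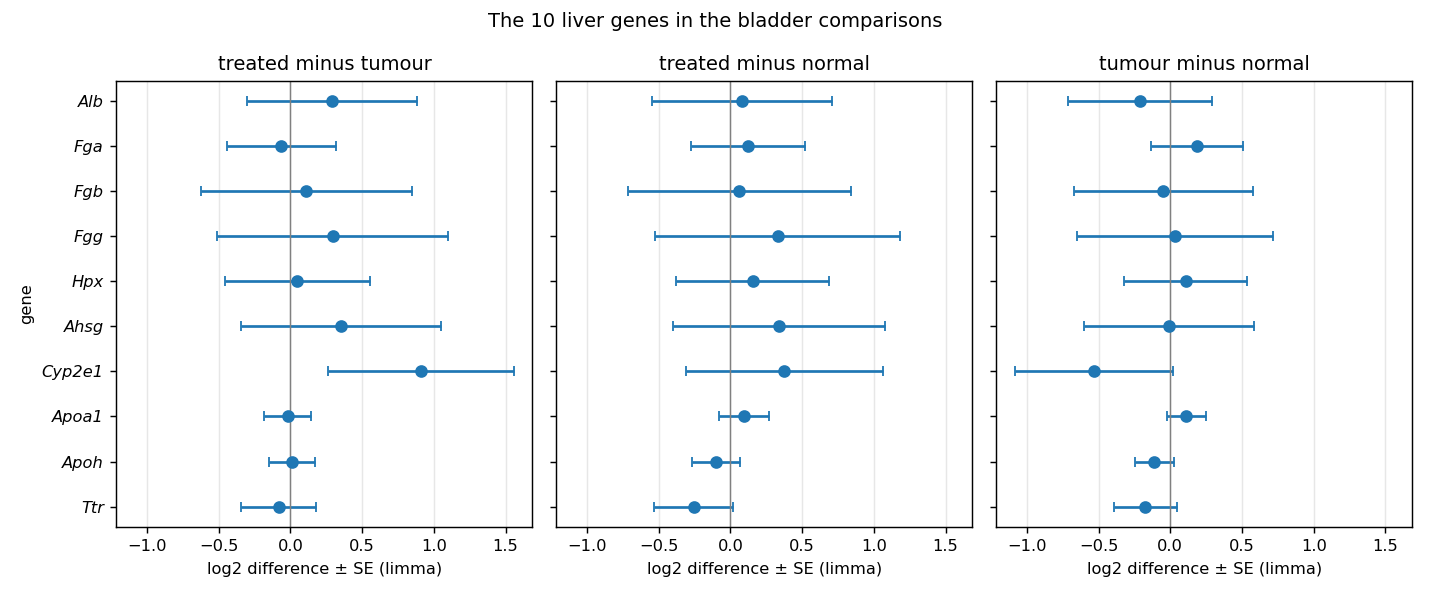
Points are limma log2 differences of the 10 genes for treated minus tumour, treated minus normal and tumour minus normal bladders, and bars are ± 1 SE. The largest is Cyp2e1 at 0.91 for treated minus tumour, and none passed the adjusted threshold of 0.05.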

How the data were processed

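Total RNA was prepared with an FFPE kit (for paraffin blocks) and 12 ng were labelled for whole-transcript arrays, per the labels' protocols. The deposited values are log2 levels that the authors made with RMA in Affymetrix Expression Console, per the submitters' processing notes, without versions. The logarithm was read as base 2, as RMA writes it. Between 96 and 222 rows per array lay above 16, which a 16-bit scanner does not reach, and the reason is not stated.

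Of 65956 rows, the 30604 named by 1 gene symbol were used (2146 had several and 33206 none), with 827 symbols updated through Entrez IDs, and the row with the highest mean stood for a gene, which left 30142 genes. Dim genes were kept. Groups were taken from the titles. A 5-group linear model was fitted in limma 3.58.1 (R 4.3.3) with empirical Bayes variance, 2-sided tests, Benjamini-Hochberg adjustment over all genes and a threshold of 0.05, and was tested on simulated data. Metastases were compared without a test. The rule for named genes took the 10 liver genes, the 10 genes most correlated with their mean, the 5 most correlated with Ahsg and, for each list, the 4 largest and 2 smallest differences on metastasis 2. The members and the lists were chosen with earlier results of these data known. Alternatives covered the samples fitted, variance prior, array weights, dim genes, normalisation, centring, rows per gene, a replicate block, the 8 arrays that stood apart and each array left out. Part of the mouse genotype is not reported here.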

Additional observations from a re-analysis of the deposited data

Results flagged for a closer look

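On metastasis 2, Alb stood at 9.40 and Fgg at 10.16, far from the other metastases, whose nearest values were 5.71 for Alb and 4.94 for Fgg. The gap to the nearest metastasis was 0.843 of the whole range of the 4 metastases for Alb and 0.895 for Fgg. These were 2 of the 30 groups of 4 to 10 arrays examined for the 10 genes. Chance alone marks about 1 group in 20, and the genes were chosen by these values, so the gaps are a description and no test.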

How the results depend on the processing

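In limma, no gene passed in the 3 bladder comparisons under any alternative run. With array weights, the smallest adjusted p was 0.295 for treated minus tumour, 0.0609 for treated minus normal and 0.238 for tumour minus normal. The counts of genes on single metastases were the same under renewed quantile normalisation, centring, averaged rows and a difference of at least 2. Without the 8 arrays that stood apart, 1 of the 10 genes lay at least 1 above the tumour mean on the palbo metastasis (Ahsg), in place of 0, and metastases 3 and 4, which are among the 8, have no value. The share of all genes is not given for that setting, so nothing is read from this change.

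Small differences of single genes, none of which passed, changed sign, and the cause was not tested. For treated minus tumour, Fga became 0.0666 with array weights, 0.0046 with the replicate block and 0.0119 without the 8 arrays. Apoa1 became 0.0925 with array weights, 0.0434 after quantile normalisation, 0.0259 after centring and 0.0075 with the replicate block, and Apoh became -0.0382 with array weights. For treated minus normal, Apoh became 0.0075 with the replicate block and 0.0270 without the 8 arrays. For tumour minus normal, Ahsg became 0.40 with array weights, 0.0014 after quantile normalisation, 0.21 with the replicate block and 0.26 without the 8 arrays. Fgb became 0.125 with array weights, 0.0915 with the replicate block and 0.0576 without the 8 arrays. Without the 8 arrays Alb became 0.0802, Hpx -0.0466 and Apoh 0.0248.

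With 1 array left out at a time, the differences that changed sign ranged as follows. For treated minus tumour they ran from -0.146 to 0.0534 for Fga, from -0.0284 to 0.156 for Hpx, from -0.0929 to 0.0598 for Apoa1, from -0.105 to 0.0811 for Apoh and from -0.183 to 0.0522 for Ttr. For treated minus normal they ran from -0.0339 to 0.217 for Alb, from -0.0327 to 0.161 for Fgb and from -0.30 to 1.29 for Cyp2e1, whose lowest value came without treated bladder 2. For tumour minus normal they ran from -0.205 to 0.157 for Ahsg, from -0.162 to 0.0498 for Fgb, from -0.0702 to 0.143 for Fgg and from -0.0004 to 0.164 for Hpx.

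With the replicate block no gene passed in limma, and 400, 262 and 1771 genes had an unadjusted p under 0.05. Deviations of same-numbered arrays correlated between -0.42 and 0.33, and none correlated best with its own number. Some of these arrays are among the 8 that stood apart, and beyond these correlations no test was made of whether the numbers pair the arrays. The number of arrays limits the precision. The site of the metastases and the source of values above 16 are not given in the sources used here.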
